A study of Mus musculus with 16 samples.

Results

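Fc receptors bind the constant part of antibodies. The 6 genes described here, Fcgr1, Fcgr2b, Fcgr3, Fcgr4, Fcer1g and Fcgrt, were chosen by symbol, and each matched 1 of the 54532 entries of a table of read counts from mouse brain. Fcgr1, Fcgr3 and Fcgr4 encode activating receptors for immunoglobulin G, and Fcgr2b encodes the inhibitory one. Fcer1g encodes the Fc receptor gamma chain, the signalling subunit of the activating receptors, and Fcgrt encodes the heavy chain of the neonatal Fc receptor, which recycles immunoglobulin G and albumin. Of the 6 genes, 5 passed a filter on low counts and were tested among 17736 genes, and Fcgr4 did not.

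The study crossed Ch25h genotype with tau status in female mice of 9 months. Ch25h encodes cholesterol 25-hydroxylase, which makes an oxidised cholesterol. Mice carried Ch25h (written Ch25h+/+) or lacked it (Ch25h-/-) and were labelled Tau- or Tau+, and each of the 4 combinations had 4 libraries, 16 in all. The sample labels name frontal cortex and the series text names hippocampus. The labels give neither the tau allele with the promoter that drives it nor how Ch25h was inactivated. They list each library as a separate sample and do not state that each came from its own animal, so p-values measure the spread between these samples.

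Microglia, the resident macrophages of the brain, are the main brain cells known to carry Fc gamma receptors. When immune complexes cluster an activating receptor, Src family kinases phosphorylate tyrosines in the tail of the gamma chain, Syk is recruited, and phagocytosis follows. FcγRIIB carries an inhibitory tyrosine motif that recruits phosphatases, so the balance of activating and inhibitory receptors sets the threshold for a response.

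Depth was 15530352 to 25602500 counts per library. Ch25h had 0 counts in all 8 Ch25h-/- libraries and 5 to 30 counts in each Ch25h+/+ library. Levels are given in CPM, counts scaled to a library size that was adjusted by TMM in edgeR, unless total counts are named. Prnp, whose reads were examined as a check of tau status, was at 1414 to 1935 CPM in the 8 Tau+ libraries. In the 8 Tau- libraries it was at 708 to 839 CPM. A set of 7 libraries, all Ch25h-/-, was rich in the rRNA transcript CT010467.1, at 2289 to 5684 CPM of total counts, and 9 were poor in it, at 111 to 475 CPM. Replicate 1 of Ch25h-/- Tau+ was the sole Ch25h-/- library among those 9. Of the Tau- libraries, all 4 Ch25h-/- libraries were rich in this transcript and all 4 Ch25h+/+ libraries were poor in it, so library class and Ch25h genotype cannot be told apart there. Cortex markers summed to 471 to 608 CPM per library and hippocampus markers to 138 to 285 CPM, and choroid plexus markers ranged from 14.8 to 2727 CPM.

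Fcgr2b, Fcgr3, Fcgr4 and Fcer1g lie close together on chromosome 1 (GRCm38, GENCODE M21). Fcgr2b spans chr1:170958617-170976547 on the minus strand, Fcgr4 chr1:171018920-171029761 on the plus strand, Fcgr3 chr1:171051174-171064935 on the minus strand, and Fcer1g chr1:171229572-171234365 on the minus strand. Fcgr1 lies at chr3:96282909-96293969 and Fcgrt at chr7:45092990-45103851, both on the minus strand. All 6 are protein-coding genes.

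The sequences that separate the activating from the inhibitory arm are short. The coding sequence of the activating tyrosine motif (ITAM) was found in transcript Fcer1g-201, where its 45 bases lie in exons between chr1:171229889 and chr1:171230072. It was not found in the coding transcript Fcer1g-203. The inhibitory motif (ITIM) was found in all 4 coding transcripts of Fcgr2b, at chr1:170961071-170961088 within 1 exon. Capitals mark the tyrosine codons, and both are written 5′ to 3′ on the coding strand.
Fcer1g ITAM: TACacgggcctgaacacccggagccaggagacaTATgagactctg
Fcgr2b ITIM: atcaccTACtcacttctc

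Fcgr2b and Fcgr3 share part of the coding sequence of their antibody-binding domains. The longest run of identical coding bases is 129 bases and is shown because reads from it fit both genes. It lies in 2 exons of each gene, at chr1:171057691-171057792 and chr1:171054167-171054193 in Fcgr3 and at chr1:170967980-170968081 and chr1:170966674-170966700 in Fcgr2b, and capitals mark the bases of the second exon of each pair.
Fcgr2b and Fcgr3 shared run: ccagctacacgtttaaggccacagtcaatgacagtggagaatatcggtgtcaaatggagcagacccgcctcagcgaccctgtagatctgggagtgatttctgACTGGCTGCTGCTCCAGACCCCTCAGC
Of the stretches of 50 bases in the Fcgr3 transcripts, 9.58% (166 of 1733) also occur in Fcgr2b, and those 166 are 2.92% of the 5685 stretches of Fcgr2b. Fcgr1, Fcgr4, Fcer1g and Fcgrt have no stretch of 50 bases in common with another gene. Over all other genes, on either strand, 395 of the 5685 stretches of Fcgr2b (6.95%) are shared, so its overlap is not with Fcgr3 alone. How reads that fit several genes were counted is not given in the sources used here, so the counts of Fcgr2b and Fcgr3 are uncertain to that extent. Fcgr2b also shares 155 exon bases, 2.68% of its own, with the antisense gene Gm38204, and whether strand was used in counting is not given either.

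The neonatal receptor was the most abundant of the 6 transcripts per length. In CPM per kilobase of exon, the order of the group means was Fcgrt, Fcer1g, Fcgr3, Fcgr1, Fcgr2b and Fcgr4 in all 4 groups. In Ch25h+/+ Tau- the levels were 9.39 ± 0.948 (SD, n = 4) for Fcgrt, 5.15 ± 2.25 for Fcer1g, 3.54 ± 1.36 for Fcgr3, 1.20 ± 0.235 for Fcgr1, 0.728 ± 0.174 for Fcgr2b and 0.151 ± 0.112 for Fcgr4. Some neighbours in this order overlapped over the libraries of a group. Fcgrt and Fcer1g overlapped in Ch25h+/+ Tau+ and Ch25h-/- Tau-, Fcer1g and Fcgr3 in all groups but Ch25h+/+ Tau+, and Fcgr1 and Fcgr2b in both Ch25h-/- groups. In Ch25h+/+ Tau+ the gamma chain stood at 10.4 ± 1.88 CPM per kilobase, beside 11.7 ± 0.742 for Fcgrt. Lengths are those of all annotated exons of a gene together, 5790 bases for Fcgr2b and 2589 for Fcgr1. In CPM, not scaled by length, mean Fcgr2b was above mean Fcgr1 in each group, as in Ch25h+/+ Tau- (4.2 against 3.1 CPM). The order of these 2 genes thus rests on the lengths used.

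**Figure D1:**
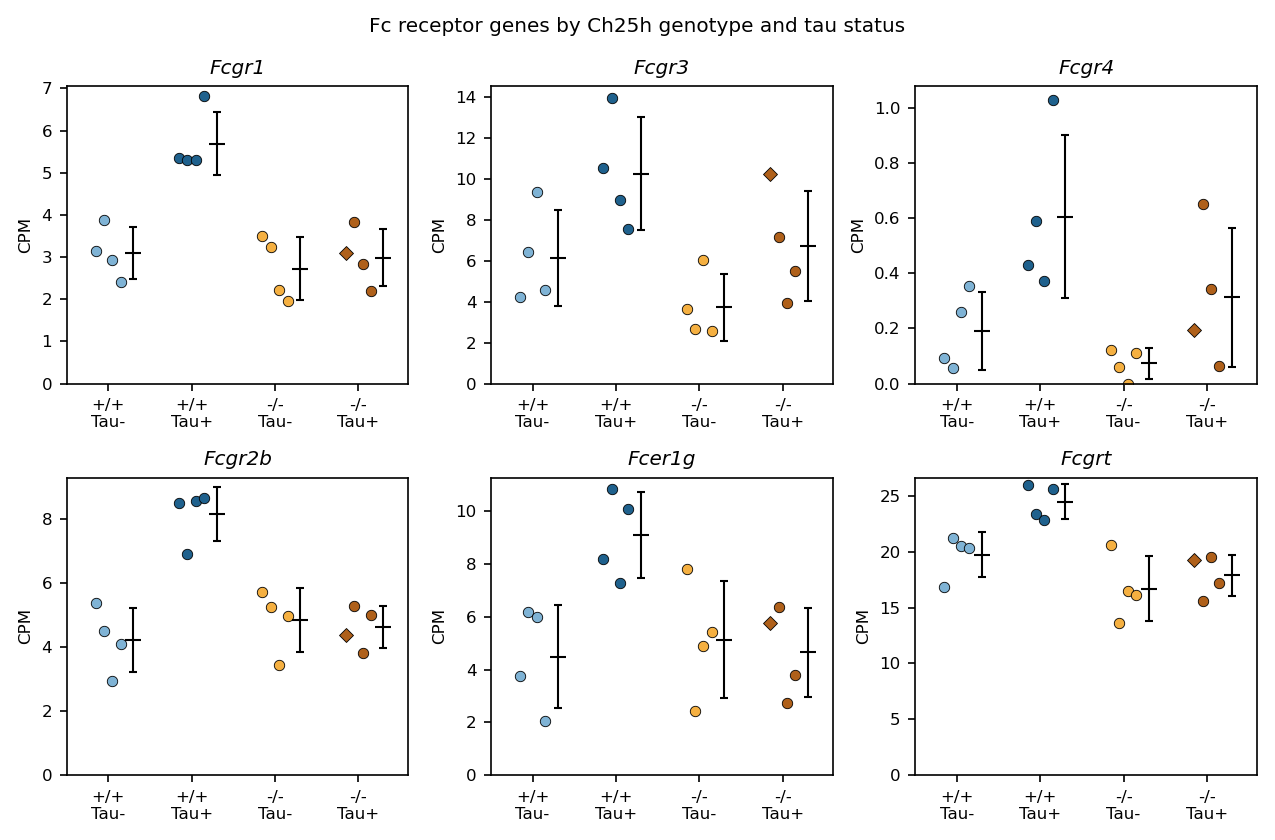
Level of each Fc receptor gene in CPM (vertical axis, linear) in each of the 16 libraries, by group (horizontal axis). Points are libraries, bars to the right of each group show the mean and SD of its 4 libraries, and the diamond is replicate 1 of Ch25h-/- Tau+, the Ch25h-/- library poor in the rRNA transcript. For Fcgr1 and Fcgr2b the 4 Ch25h+/+ Tau+ libraries lie above the 12 others.

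With Ch25h present, tau was accompanied by higher transcript levels of the high-affinity activating receptor and of the inhibitory receptor. Fcgr1 and Fcgr2b rose, by 1.84-fold and 1.93-fold. Per gene tested, 1.47% of the 17736 genes were called higher in this comparison (Tau+ against Tau- in Ch25h+/+), and 2 of the 5 Fc receptor genes tested were. Tests were edgeR quasi-likelihood tests on all 16 libraries, and a gene was called where the p-value adjusted over all genes (Benjamini-Hochberg) was under 0.05. The median log2 fold change of the 5 genes was 0.88, beside -0.008 over all genes tested. In bulk tissue, more cells of a type and more RNA per cell cannot be told apart.

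Fcgr1, whose product FcγRI binds monomeric immunoglobulin G with high affinity, was at 3.14, 3.88, 2.93 and 2.42 CPM in the 4 Ch25h+/+ Tau- libraries and at 5.36, 5.30, 5.30 and 6.82 CPM in the 4 Ch25h+/+ Tau+ libraries. All 4 Tau+ libraries were above all 4 Tau- libraries. The log2 fold change was 0.88 (SE 0.21, adjusted p = 0.0349, edgeR). The call was lost without Ch25h+/+ Tau+ replicate 2, 3 or 4 (adjusted p = 0.0542, 0.0552 and 0.168) and without Ch25h+/+ Tau- replicate 1, 3 or 4 (0.0948 to 0.145), at log2 fold changes of 0.78 to 0.93.

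Fcgr2b was at 5.36, 4.49, 2.93 and 4.08 CPM in Ch25h+/+ Tau- and at 8.5, 6.90, 8.55 and 8.64 CPM in Ch25h+/+ Tau+. The groups did not overlap. The log2 fold change was 0.95 (SE 0.19, adjusted p = 0.00857, edgeR), and the gene stayed past the threshold in all 25 alternative fits, 9 with another setting and 16 with 1 library left out.

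Fcer1g, the gamma chain, was at 3.74, 6.18, 6.0 and 2.07 CPM in Ch25h+/+ Tau- and at 8.19, 10.9, 7.30 and 10.1 CPM in Ch25h+/+ Tau+. Here too all 4 Tau+ libraries were the higher ones, and the Tau- libraries ranged from 2.07 to 6.18 CPM. The log2 fold change was 1.02 (SE 0.33, adjusted p = 0.206, edgeR), which did not pass. Fcer1g was called in 1 of 9 other settings, the fit with no filter beyond 1 count (adjusted p = 0.0258). It was called in 0 of 16 fits with 1 library left out.

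Fcgrt was at 16.8, 21.3, 20.5 and 20.4 CPM in Ch25h+/+ Tau- and at 26.0, 23.4, 22.9 and 25.6 CPM in Ch25h+/+ Tau+, with no overlap. Its log2 fold change of 0.31 (SE 0.12, adjusted p = 0.317, edgeR) did not pass. Fcgr3, whose product FcγRIII binds immune complexes with low affinity, was at 4.20, 6.40, 9.36 and 4.59 CPM against 10.5, 13.9, 8.97 and 7.56 CPM, and the groups overlapped. Its log2 fold change was 0.74 (SE 0.31, adjusted p = 0.428, edgeR). Of the 5 tested genes, 4 had Tau+ libraries that were all above the Tau- libraries, beside 3.89% of all genes tested.

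Fcgr4 encodes FcγRIV, an activating receptor for certain immunoglobulin G subclasses. It had 2, 1, 6 and 7 counts in the Ch25h+/+ Tau- libraries and 7, 14, 8 and 22 counts in the Ch25h+/+ Tau+ libraries. In CPM the Tau+ libraries were all above the Tau- libraries, at 0.605 ± 0.296 (SD, n = 4) against 0.190 ± 0.140. Summed over libraries, 51 against 16 counts gave a depth-scaled ratio of 3.19 with an exact 95% interval of 1.79 to 5.99, which covers counting error only. In a fit with no filter beyond 1 count the adjusted p was 0.385 (edgeR).

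Without Ch25h, the Tau+ and Tau- libraries overlapped for all 5 tested genes. None was called (edgeR, 0 of 5, with 1 at an unadjusted p under 0.05 and 0 by DESeq2 or limma-voom), where 0.0395% of all genes were called in either direction. Fcgr1 was at 3.49, 3.24, 2.23 and 1.95 CPM in Ch25h-/- Tau- and at 3.09, 3.83, 2.84 and 2.19 CPM in Ch25h-/- Tau+, a log2 fold change of 0.13 (95% interval -0.33 to 0.59). Fcgr2b was at 5.72, 5.24, 3.44 and 4.96 CPM against 4.38, 5.26, 3.81 and 5.0 CPM, a log2 fold change of -0.07 (-0.47 to 0.33). The 4 Tau+ libraries of Fcgr2b lay within the range of the Tau- libraries, and those of Fcgr1 exceeded it in 1 library.

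Fcer1g in the Ch25h-/- libraries was at 7.83, 2.41, 4.88 and 5.41 CPM with Tau- and at 5.75, 6.37, 2.73 and 3.81 CPM with Tau+, a log2 fold change of -0.13 (95% interval -0.85 to 0.59). Fcgrt was at 20.6, 13.7, 16.5 and 16.1 CPM against 19.3, 15.6, 19.6 and 17.2 CPM, a log2 fold change of 0.10 (-0.15 to 0.35). Fcgr3 had the largest difference of the 5, at 3.61, 2.65, 6.03 and 2.57 CPM against 10.2, 7.15, 3.92 and 5.50 CPM. Its log2 fold change was 0.86 (SE 0.33, unadjusted p = 0.0167, adjusted p = 1.0, edgeR), close to its value of 0.74 with Ch25h present. The highest value, 10.2 CPM, was that of replicate 1 of Ch25h-/- Tau+, the library poor in the rRNA transcript, and without that library the log2 fold change was 0.56. Fcgr4 had 2, 1, 0 and 2 counts in Ch25h-/- Tau-, all below the 3 counts taken as the floor, and 5, 10, 6 and 1 counts in Ch25h-/- Tau+. The depth-scaled ratio of the summed counts, 22 against 5, was 4.02 (exact 95% interval 1.49 to 13.6, counting error only), and the 2 groups overlapped.

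**Figure D2:**
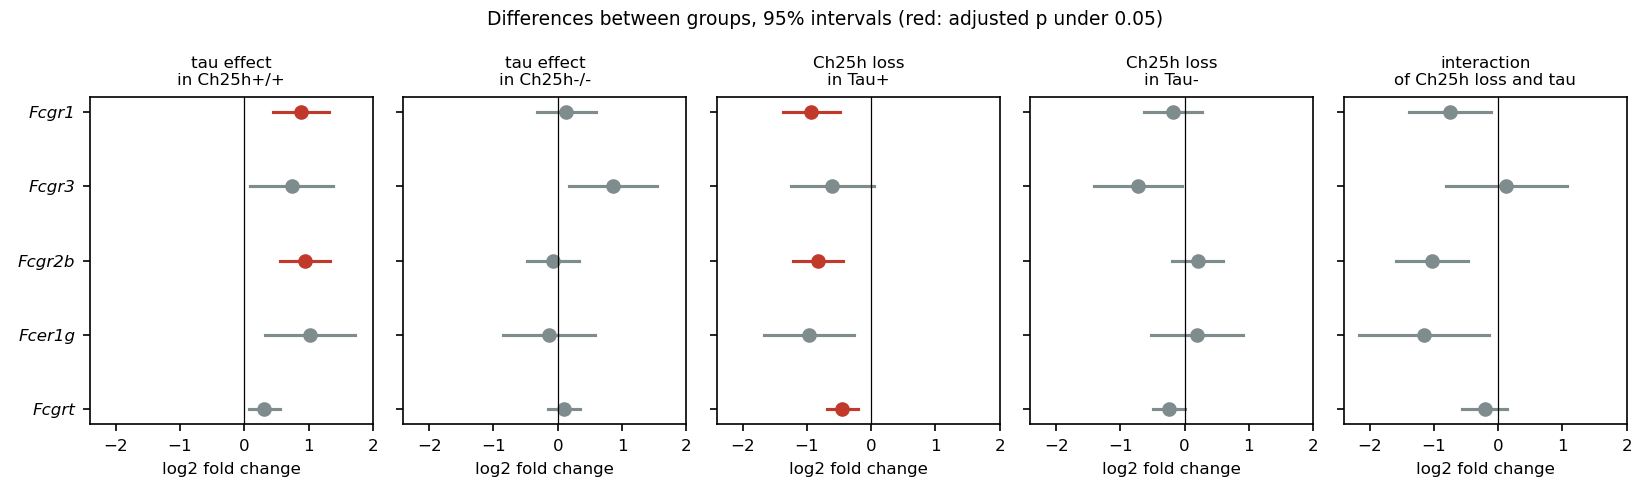
Log2 fold change (horizontal axis) with its 95% interval for the 5 Fc receptor genes tested, in the 4 comparisons and the interaction, from 1 edgeR fit of 16 libraries. Red marks an adjusted p under 0.05, which Fcgr1 and Fcgr2b reached for tau with Ch25h present and Fcgr1, Fcgr2b and Fcgrt reached for Ch25h loss with tau.

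Among the Tau+ libraries, loss of Ch25h was accompanied by lower Fcgr1, Fcgr2b and Fcgrt. The 3 genes fell, by 1.91-fold, 1.77-fold and 1.37-fold, and 2.4% of all genes were called lower in this comparison. Calls over all genes in either direction numbered 629, and 108 to 1691 with 1 library left out. It shares the 4 Ch25h+/+ Tau+ libraries with the comparison of tau above, so the results are not independent. The median log2 fold change of the 5 tested genes was -0.82, beside 0.004 over all genes. The log2 fold changes were -0.93 for Fcgr1 (SE 0.21, adjusted p = 0.0268), -0.82 for Fcgr2b (SE 0.19, adjusted p = 0.0270) and -0.45 for Fcgrt (SE 0.12, adjusted p = 0.0417), all by edgeR. All 4 Ch25h-/- Tau+ libraries were below all 4 Ch25h+/+ Tau+ libraries for these 3 genes and for Fcer1g, as was so for 5.74% of all genes tested.

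Fcer1g had a log2 fold change of -0.96 (SE 0.34, adjusted p = 0.0993, edgeR) in the same comparison and passed with DESeq2 (adjusted p = 0.0374), limma-voom (0.0376) and no filter beyond 1 count (0.0269). It was called in 3 of 9 other settings and in 0 of 16 fits with 1 library left out, and with library class as a covariate it was at -0.66 (adjusted p = 0.976). Fcgr3 had one of -0.60 (SE 0.31, adjusted p = 0.244, edgeR), with overlapping libraries, and was at -0.0063 with library class (adjusted p = 0.999). Fcgr4 had 51 counts in Ch25h+/+ Tau+ and 22 in Ch25h-/- Tau+, a depth-scaled ratio of 0.480 (exact 95% interval 0.277 to 0.806, counting error only), and its libraries overlapped.

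The calls for Ch25h loss in Tau+ moved with the libraries and with library class. With class as a covariate none of the 3 genes passed, and the log2 fold changes were -0.88 for Fcgr1 (adjusted p = 0.976), -0.89 for Fcgr2b (0.824) and -0.35 for Fcgrt (0.976); that fit rests on 1 Ch25h-/- library poor in the rRNA transcript. Without that library, replicate 1 of Ch25h-/- Tau+, all 3 passed, at -0.96, -0.81 and -0.50. None of the 3 passed without Ch25h+/+ Tau+ replicate 4, Ch25h-/- Tau+ replicate 3 or Ch25h-/- Tau+ replicate 4, with adjusted p of 0.0579 to 0.118. Fcgr1 alone passed without Ch25h+/+ Tau+ replicate 1, and Fcgrt also missed the threshold without Ch25h-/- Tau+ replicate 2 (adjusted p = 0.125) and Ch25h+/+ Tau- replicate 4 (0.0501). For Fcgrt, offsets that removed the trend with GC content gave -0.31 (adjusted p = 0.178), and its call was also lost with a surrogate variable (0.0515) and with only the 8 libraries compared (0.0885). Fcgr1 too was not called with only those 8 libraries (adjusted p = 0.0553).

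Among the Tau- libraries, loss of Ch25h brought no call for the 5 tested genes (edgeR, 0 of 5, with 1 at an unadjusted p under 0.05 and 0 by DESeq2 or limma-voom), and 1.03% of all genes were called. That share is 182 genes, and 3 to 1306 genes with 1 library left out. The log2 fold changes were -0.18 (95% interval -0.64 to 0.27) for Fcgr1, 0.20 (-0.20 to 0.60) for Fcgr2b, 0.19 (-0.53 to 0.91) for Fcer1g and -0.24 (-0.49 to 0.005) for Fcgrt. Fcgr3 had the lowest value, -0.73 (-1.42 to -0.04, adjusted p = 0.213), and it was 0.16 with library class as a covariate, so its sign turned with that setting. Fcgr4 had 5 counts in Ch25h-/- Tau- and 16 in Ch25h+/+ Tau-, a depth-scaled ratio of 0.381 (exact 95% interval 0.109 to 1.09, counting error only).

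Whether the tau effect differed by Ch25h genotype was tested by the interaction. It was called for none of the 5 genes (edgeR, 0 of 5, with 3 at an unadjusted p under 0.05 and 0 by DESeq2 or limma-voom), where 0.0338% of all genes were called. The tau effect was lower without Ch25h by 1.02 on the log2 scale for Fcgr2b (interaction -1.02, SE 0.27, 95% interval -1.58 to -0.47, unadjusted p = 0.00115, adjusted p = 0.291). For Fcer1g the interaction was -1.15 (SE 0.48, adjusted p = 1.0), for Fcgr1 -0.75 (SE 0.30, adjusted p = 0.998), for Fcgrt -0.21 (SE 0.16, adjusted p = 1.0) and for Fcgr3 0.13 (SE 0.45, adjusted p = 1.0). A difference of the tau effect between the genotypes was thus not shown for any of the 5 genes at this number of libraries.

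The ratio of an activating receptor gene to Fcgr2b within a library describes the balance of the 2 arms on the transcript level. The log2 ratio, taken from CPM plus 0.5, was compared 12 times between groups of 4 libraries by two-sided exact permutation, which cannot go below p = 0.0286. A single comparison at that limit would have an adjusted p of 0.343, and 7 of the 12 would have to reach it for any to pass, so these tests say nothing of stability. The ratio of Fcgr1 to Fcgr2b was -0.38 ± 0.34 (SD, n = 4) in Ch25h+/+ Tau- and -0.48 ± 0.17 in Ch25h+/+ Tau+, and -0.74 ± 0.28 and -0.56 ± 0.31 in the corresponding Ch25h-/- groups. The difference with tau in Ch25h+/+, -0.10 (exact permutation p = 0.629), was smaller than the SD of either group. The largest differences were those of Fcgr3, whose ratio to Fcgr2b was 0.82 higher with tau in Ch25h-/- (exact permutation p = 0.114, adjusted p = 0.686) and 0.85 lower with Ch25h loss in Tau- (difference -0.85, exact permutation p = 0.200, adjusted p = 0.686).

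Microglia markers moved with the same comparison. Their summed level over 10 markers spanned 317 to 348 CPM across the Ch25h+/+ Tau- libraries and 390 to 494 CPM across the Ch25h+/+ Tau+ libraries. Without Ch25h it spanned 316 to 350 CPM for Tau- and 318 to 387 CPM for Tau+. Csf1r was the highest of them, at means of 92.5 and 131 CPM in the Ch25h+/+ groups, and none was at 0. The markers did not move alike. With tau in Ch25h+/+ 3 of the 10 rose and 0 fell (edgeR), at a median log2 fold change of 0.39, while Olfml3 was at -0.43 and Tmem119 at 0.019. With Ch25h loss in Tau+ 4 fell and 0 rose, at a median of -0.28, among them Cx3cr1 (-0.43) and Csf1r (-0.47), while P2ry12 was at 0.23, Siglech at 0.21 and Olfml3 at 0.27, none of these 3 past the threshold. Relative to the mean log2 level of these markers, Fcgr2b was at -2.33 ± 0.38 in Ch25h+/+ Tau- and -1.75 ± 0.17 in Ch25h+/+ Tau+, a difference of 0.58 with no overlap. Fcgr1 differed by 0.48 and Fcer1g by 0.71 on this relative scale, with overlapping libraries. Fcgrt differed by -0.006.

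With Ch25h loss in Tau+, the levels relative to microglia markers were lower by 0.65 for Fcgr1 (difference -0.65), 0.57 for Fcgr2b (-0.57) and 0.75 for Fcer1g (-0.75), each with no overlap. For Fcgrt the difference was -0.25 and the libraries overlapped. Measured against each of the 10 markers alone, a choice made after seeing the data, the difference with Ch25h loss in Tau+ spanned -1.13 to -0.25 for Fcgr1, -1.05 to -0.17 for Fcgr2b, -1.23 to -0.35 for Fcer1g and -0.74 to 0.15 for Fcgrt. With tau in Ch25h+/+ it spanned 0.070 to 1.25 for Fcgr1, 0.17 to 1.35 for Fcgr2b, 0.30 to 1.49 for Fcer1g and -0.42 to 0.76 for Fcgrt. The sign for Fcgr1, Fcgr2b and Fcer1g was thus the same against all 10 markers in these 2 comparisons, whereas the size and, for Fcgrt, the sign depended on the marker. These values carry no test. The share of all genes without overlap on this relative scale was not determined in either comparison, so how unusual no overlap is here cannot be told.

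Border macrophage markers, led by Mrc1, spanned, as a sum, 5.79 to 14.1 CPM (Tau-) and 11.6 to 20.6 CPM (Tau+) across the Ch25h+/+ libraries. Across the Ch25h-/- libraries the sums spanned 7.11 to 16.4 CPM (Tau-) and 8.12 to 14.8 CPM (Tau+). All 6 had counts, and their part in the results was not tested. None of the 6 was called by edgeR, DESeq2 or limma-voom. By edgeR, 3 had an unadjusted p under 0.05 with tau in Ch25h+/+, 2 for Ch25h loss in Tau+ and 2 for the interaction. With tau in Ch25h+/+ the log2 fold changes were 1.19 (Pf4), 1.04 (Cbr2), 0.69 (Cd163), 0.64 (F13a1), 0.56 (Mrc1) and 0.18 (Lyve1). For Ch25h loss in Tau+ they were -0.26, -0.85, -0.68, -0.58, -0.32 and 0.0012 in the same order. Monocyte markers, led by Ccr2, summed to at most 1.33 CPM in any library. Neutrophil markers summed to at most 2.16 CPM, B or plasma cell markers to at most 1.42 CPM, T or NK cell markers to at most 3.11 CPM and mast cell markers to at most 0.231 CPM.

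Summed levels of dendritic cell and endothelial markers were higher. Of the dendritic cell markers, Zbtb46 was at means of 14.1 to 17.2 CPM and Flt3 at 10.8 to 11.1 CPM. Cd209a was at 0.92 to 1.14 CPM, and Xcr1 and Clec9a had at most 3 and 7 counts in any library, so the list did not move as 1. The 5 dendritic cell markers, led by Zbtb46, summed to 21.9 to 30.7 CPM over all libraries, and 0 of the 3 tested were called in any comparison by edgeR, DESeq2 or limma-voom (by edgeR, 1 had an unadjusted p under 0.05 with tau in Ch25h-/- and 1 for the interaction). The 5 endothelial markers, led by Flt1, spanned, as a sum, 166 to 194 CPM (Tau-) and 192 to 231 CPM (Tau+) across the Ch25h+/+ libraries. Across the Ch25h-/- libraries they spanned 165 to 193 CPM (Tau-) and 161 to 198 CPM (Tau+). None of the 5 was called by edgeR, with 1 at an unadjusted p under 0.05 in each of tau in Ch25h+/+, Ch25h loss in Tau+ and Ch25h loss in Tau-, while DESeq2 and limma-voom each called 1, Cldn5, for Ch25h loss in Tau+. Cldn5, a tight junction gene of endothelium, had log2 fold changes of 0.27 with tau in Ch25h+/+ (adjusted p = 0.670) and -0.54 with Ch25h loss in Tau+ (unadjusted p = 0.00268, adjusted p = 0.0603), beside 0.31 and -0.45 for Fcgrt. For Ch25h loss in Tau+ the other endothelial markers were at 0.0048 (Flt1), -0.12 (Ly6c1), -0.13 (Pecam1) and -0.21 (Cdh5). With tau in Ch25h+/+ they were at 0.16 (Flt1), -0.0063 (Ly6c1), 0.16 (Pecam1) and 0.33 (Cdh5). The part of endothelial RNA in the Fcgrt values was not tested.

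**Figure D3:**
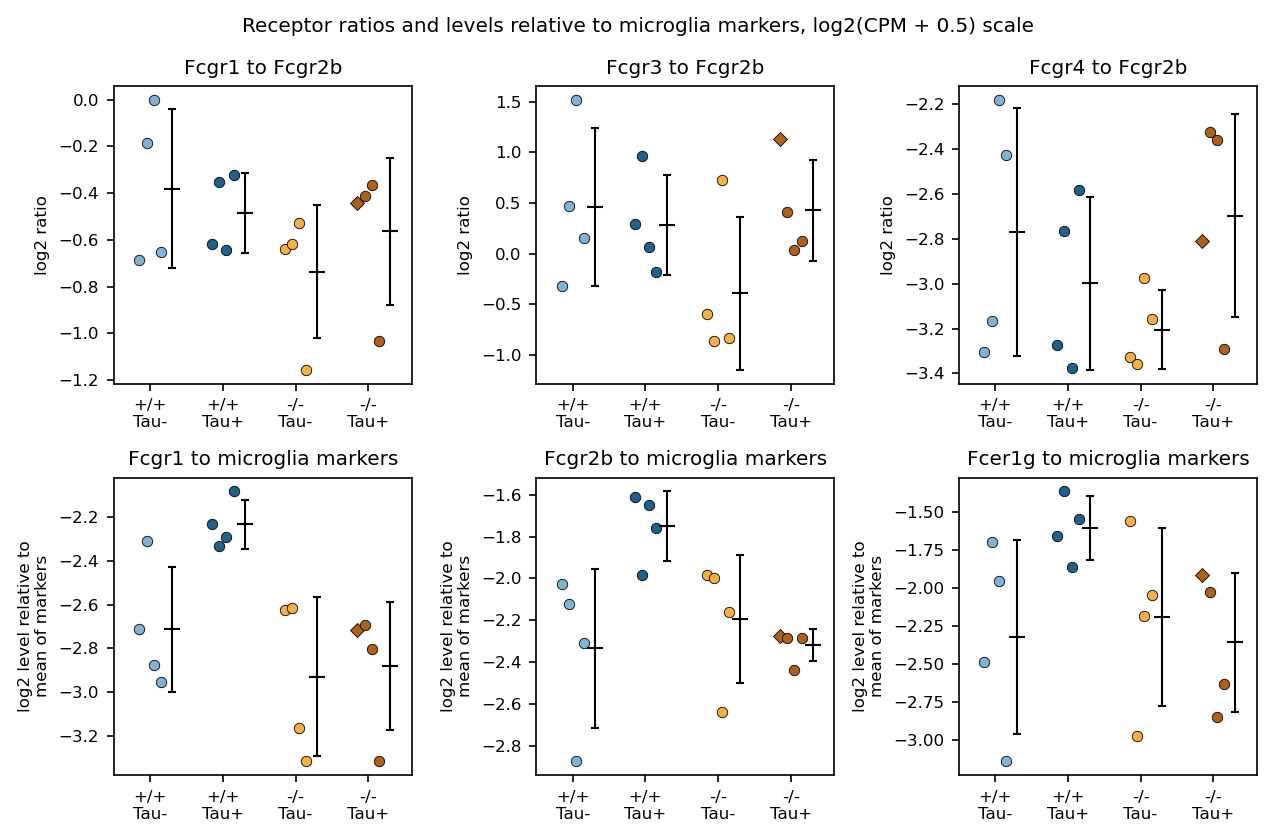
Top row, log2 ratio of Fcgr1, Fcgr3 and Fcgr4 to Fcgr2b in each library; bottom row, log2 level of Fcgr1, Fcgr2b and Fcer1g minus the mean of 10 microglia markers, all on the log2(CPM + 0.5) scale, by group (horizontal axis). Points are libraries, bars are mean and SD of 4, and the diamond is replicate 1 of Ch25h-/- Tau+. The ratios overlap between groups, whereas Fcgr2b relative to the markers is higher in all 4 Ch25h+/+ Tau+ libraries than in the Ch25h+/+ Tau- and Ch25h-/- Tau+ libraries.

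Some genes that carry the signal of the activating receptors also rose with tau in Ch25h+/+. Of 14 such genes, Fgr, a Src family kinase, reached 10 counts only in Ch25h+/+ Tau+ libraries and so passed the filter on low counts through the group where it was high. It is left out of the counts here and described by its levels, 0.152 ± 0.0698 CPM (SD, n = 4) in Ch25h+/+ Tau- and 1.42 ± 0.236 CPM in Ch25h+/+ Tau+, with at most 7 counts in any library of the other groups. Of the other 13, all tested, 4 rose and 0 fell, with a median log2 fold change of 0.71, where 1.47% of all genes were called higher. Pik3cg, a phosphoinositide 3-kinase subunit, and Prkcd, a protein kinase C, rose by 0.89 (SE 0.18, adjusted p = 0.0123) and 0.71 (SE 0.16, adjusted p = 0.0237) on the log2 scale. Syk, the kinase recruited by the gamma chain, had a log2 fold change of 0.014 in the same fit. The count of called genes among the 13 was 0 to 5 when 1 library was left out. Pik3cg was not called with only the 8 libraries compared (adjusted p = 0.0621), nor without Ch25h+/+ Tau+ replicate 4 or Ch25h+/+ Tau- replicate 1 or 2 (adjusted p = 0.0506 to 0.0676), nor Prkcd without Ch25h+/+ Tau+ replicate 2, 3 or 4 or Ch25h+/+ Tau- replicate 1, 2 or 3 (0.0532 to 0.0984).

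With Ch25h loss in Tau+, 4 of the 13 fell and 0 rose, with a median of -0.46, where 2.4% of all genes were called lower. Rac2, a small GTPase of phagocytosis, fell by 0.93 (SE 0.22, adjusted p = 0.0292, edgeR) and Lyn, a Src family kinase, by 0.62 (SE 0.15, adjusted p = 0.0348) on the log2 scale. Fgr was at 0.228 ± 0.118 CPM in Ch25h-/- Tau+. The count among the 13 was 0 to 6 when 1 library was left out and 1 with library class as a covariate. With only the 8 libraries compared the adjusted p was 0.0561 for Rac2 and 0.104 for Lyn, with library class it was 0.770 and 0.546, and with GC offsets it was 0.0808 for Rac2. Rac2 was not called without Ch25h+/+ Tau+ replicate 1 or 4 or Ch25h-/- Tau+ replicate 3 or 4 (adjusted p = 0.0563 to 0.0970), nor Lyn without Ch25h+/+ Tau+ replicate 3 or 4 or Ch25h-/- Tau+ replicate 3 or 4 (0.0536 to 0.113). With tau in Ch25h-/- none of the 13 was called (edgeR, with 0 at an unadjusted p under 0.05 and 0 by DESeq2 or limma-voom), and their median was 0.0040. With Ch25h loss in Tau- none was called either (1 at an unadjusted p under 0.05, 0 by DESeq2 or limma-voom).

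On the inhibitory side, 1 of 8 signalling genes was called in each of these comparisons, beside 1.47% of all genes higher with tau and 2.4% lower with Ch25h loss. With 1 library left out the count was 1 to 2 for tau and 0 to 2 for Ch25h loss. Ptpn6, which encodes the phosphatase SHP-1, rose with tau in Ch25h+/+ by 1.04 (SE 0.19, adjusted p = 0.00428, edgeR) and fell with Ch25h loss in Tau+ by 0.95 (SE 0.19, adjusted p = 0.0132) on the log2 scale. The call for Ch25h loss was lost without Ch25h+/+ Tau+ replicate 4 (adjusted p = 0.0602), with library class as a covariate (0.858) and with only the 8 libraries compared (0.0508). The median of the 8 genes was 0.08 with tau and -0.15 with Ch25h loss.

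Of the 4 adaptor and partner genes 2 were tested, and both were called in both comparisons, beside the same shares of all genes. Tyrobp, which encodes the adaptor DAP12 of related microglial receptors, was at 7.33 CPM in Ch25h+/+ Tau-, 19.1 in Ch25h+/+ Tau+, 6.05 in Ch25h-/- Tau- and 7.35 in Ch25h-/- Tau+ (means of 4). It rose with tau in Ch25h+/+ by 1.38 (SE 0.16, adjusted p = 6.52e-05, edgeR) and fell with Ch25h loss in Tau+ by 1.38 (SE 0.16, adjusted p = 0.000117) on the log2 scale. B2m encodes beta-2 microglobulin, the light chain that pairs with the Fcgrt product. It rose by 0.93 (SE 0.11, adjusted p = 0.000136, edgeR) and fell by 0.61 (SE 0.11, adjusted p = 0.00854), beside 0.31 and -0.45 for Fcgrt. The call for Ch25h loss in Tau+ was lost for Tyrobp with library class as a covariate (adjusted p = 0.0536) and for B2m with only the 8 libraries compared (0.0548).

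**Figure D4:**
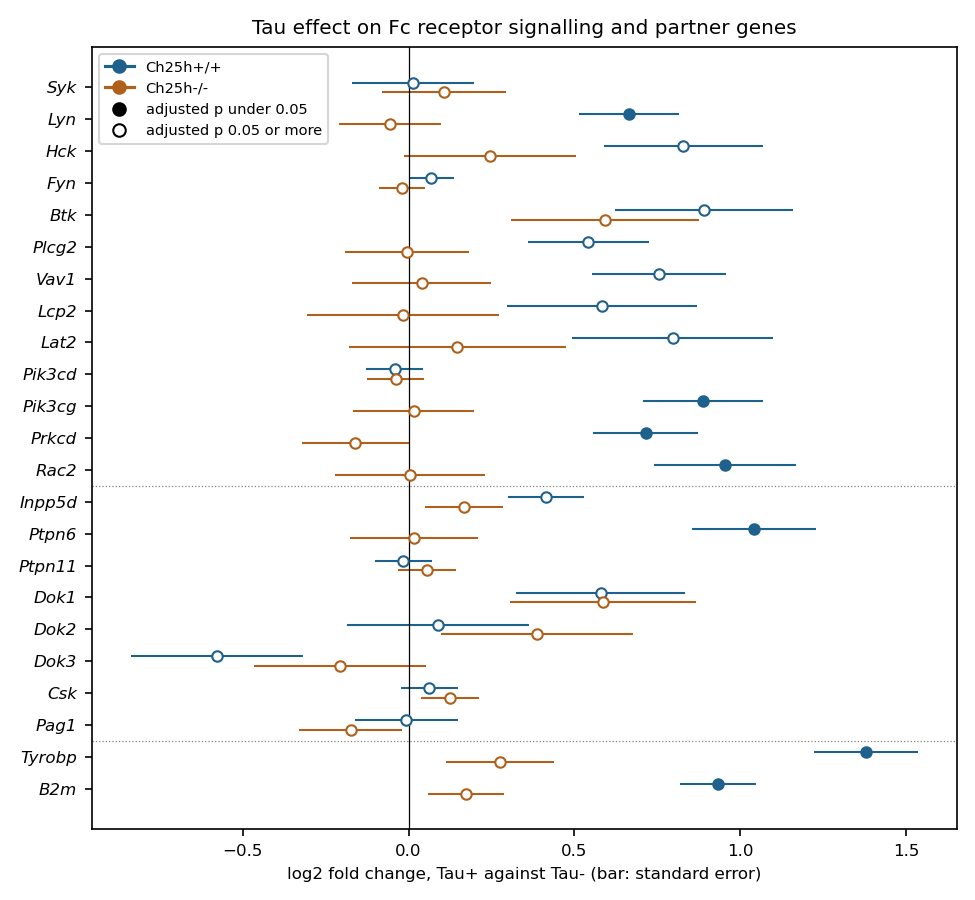
Log2 fold change of Tau+ against Tau- (horizontal axis; bars are standard errors) in Ch25h+/+ (blue) and Ch25h-/- (brown) for 13 activating signalling genes (Fgr is left out), 8 inhibitory signalling genes and 2 partners, separated by dotted lines. Filled points have an adjusted p under 0.05 by edgeR, which 7 genes reached in Ch25h+/+ and 0 in Ch25h-/-.

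Other receptors of this kind were low or not called. Of 12 other Fc receptors and relatives 4 were tested and 0 were called in any comparison (edgeR; 1 of 4 at an unadjusted p under 0.05 with tau in Ch25h+/+, with Ch25h loss in Tau+ and with Ch25h loss in Tau-; 0 by DESeq2 or limma-voom). Fcrls, an Fc receptor-like gene of microglia, was the highest, at 25.1 CPM in Ch25h+/+ Tau- and 29.8 in Ch25h+/+ Tau+ (means of 4), and Fcer1a was at 0 counts in all 16 libraries. Of 8 other receptors that use the gamma chain, 1 was tested, Oscar, with 0 called (edgeR, 0 at an unadjusted p under 0.05). Lilra5, another of the 8, did not pass the filter with all libraries and was at 0.182 ± 0.0442 CPM (SD, n = 4) in Ch25h+/+ Tau- and 0.654 ± 0.226 CPM in Ch25h+/+ Tau+. With 1 library left out it entered some fits, and the list then had 0 to 1 calls with tau in Ch25h+/+, the call being Lilra5 without Ch25h-/- Tau- replicate 4. Of 13 immunoglobulin genes, 4 were tested and 0 were called (edgeR, DESeq2 and limma-voom, with 0 at an unadjusted p under 0.05). Ighm was the highest, at means of 31.2 to 37.6 CPM. Of the genes for immunoglobulin G heavy chains, Ighg2c was at means of 5.8 to 7.2 CPM, with up to 174 counts in a library. Ighg2b and Ighg3 had at most 5 and 6 counts in any library, and Ighg1, Iglc1 and Iglc2 had at most 3.

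Around Fcgr1, 128 genes within 5 Mb were tested. With tau in Ch25h+/+, 4 were called higher and 1 lower, Fcgr1 included, which is 3.91% beside 3.20% of the 907 genes tested on chromosome 3 and 1.56% of all genes. Ctss, which encodes the lysosomal protease cathepsin S, had the largest evidence there, at a log2 fold change of 1.28 (SE 0.11, adjusted p = 4.1e-06, edgeR). With tau in Ch25h-/- 0 of the 128 were called (edgeR). With Ch25h loss in Tau+ 7 of the 128 were called lower, Fcgr1 included, and 0 higher. That is 5.47% beside 4.08% of the chromosome and 3.55% of all genes. With Ch25h loss in Tau- 2 of the 128 were called higher and 0 lower, which is 1.56% beside 0.66% of the chromosome and 1.03% of all genes. The window was centred on Fcgr1, itself a called gene, which raises the shares for tau in Ch25h+/+ and for Ch25h loss in Tau+.

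The Fcgr1 promoter is shown because it holds a motif searched for and the gene was called with tau in Ch25h+/+ and with Ch25h loss in Tau+. Motifs were sought on both strands in the 250 bases before the RefSeq start (GRCm38.p6), for which all 6 genes had an entry. They were GAGGAA (the core bound by PU.1) and GAAANNGAA (a core of the interferon response element), and these are present in 23.3% and 7.13% of 32851 promoters of the same length. The Fcgr1 promoter lies at chr3:96293970-96294219 on the minus strand, and capitals mark GAGGAA, read on the other strand, at -55 to -50.
Fcgr1 promoter: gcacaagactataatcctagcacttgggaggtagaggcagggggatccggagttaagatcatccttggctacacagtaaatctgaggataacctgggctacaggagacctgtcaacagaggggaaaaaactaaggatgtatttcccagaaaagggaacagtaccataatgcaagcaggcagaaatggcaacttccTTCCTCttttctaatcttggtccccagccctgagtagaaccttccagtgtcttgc
GAGGAA was also found in Fcgr3, at -6 to -1 and -15 to -10 of its 2 entries, and in Fcgr4 at -22 to -17, where GAAANNGAA lies at -73 to -65. Neither motif was found in this window of Fcgr2b, Fcer1g or Fcgrt.

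The genes whose levels followed each receptor most closely over the 16 libraries were found by Pearson correlation of log2(CPM + 0.5). The libraries share the group differences, depth and library class, so the values are a description. For Fcgr1 they were Adgre1 (r = 0.919), Slc11a1 (0.914) and Irf8 (0.913), and for Fcgr2b they were Arhgap9 (0.886), Slc16a1 (0.871) and Havcr2 (0.864). For Fcer1g they were Neurl3 (0.887), Cyp26b1 (0.886) and Cd274 (0.870), and for Fcgrt Tmem106a (0.916), Trim47 (0.900) and Ppp1r18 (0.896). Fcgr3 had the lowest leading value, with Nfkb2 (0.839), Tmed10-ps (0.830) and Smco4 (0.816), and Fcgr4 was followed by Tspan4 (0.905), Cxcl16 (0.884) and Ly86 (0.873). After the group means were removed, the leading values were 0.752 for Fcgr1 with Adgre1 and 0.652 for Fcgr2b with Arhgap9.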

How the data were processed

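RNA of 16 mouse brain samples was sequenced as bulk libraries made with a SMARTer mRNA kit, per the labels' protocols. The deposited table holds raw read counts per gene, which the authors did not normalise. The submitters' processing notes name STAR 2.7, GRCm38 and mm10; the annotation, counting program and use of strand are not given in the sources used here. The table was fitted whole. Counts were scaled by TMM in edgeR 4.0.16 (R 4.3.3), filtered with filterByExpr (17736 genes kept) and tested with quasi-likelihood F tests of group means over all 16 libraries, adjusted by Benjamini-Hochberg with a threshold of 0.05. CPM are on TMM-scaled library sizes. The test was also tried on simulated data, whose outcome is not given here, so no conclusion rests on it. Standard errors are the log2 fold change divided by the square root of F. Ratios used a pseudocount of 0.5 CPM and exact permutation tests, adjusted over 12. Alternatives were other size factors and filters, DESeq2 1.42.0, limma-voom (limma 3.58.1), a surrogate variable (sva 3.50.0), library class, GC offsets, the 8 libraries compared, and each library left out. A planned smaller set of reference markers and a promoter motif are not reported here; each marker alone was used as reference in its place. Intervals on counts and the floor of 3 counts cover counting error only, since reads carry no molecular identifiers. Gene positions and lengths are from GENCODE M21, whose symbols cover 98.7% of the table; promoters are from RefSeq. Named genes were the 6 members, up to 3 called genes per list by smallest p, the 3 genes most correlated with each member, Ch25h and Prnp, and of marker lists the highest gene and those at 0. Syk, Ctss, Fcrls, Oscar, Ighm, Ighg1, Ighg2b, Ighg2c, Ighg3, Iglc1, Iglc2, Fcer1a, Cldn5, Ly6c1, Pecam1, Cdh5, Lilra5, Olfml3, Tmem119, Cx3cr1, P2ry12, Siglech, Flt3, Cd209a, Xcr1, Clec9a, Pf4, Cbr2, Cd163, F13a1 and Lyve1 were named after their values were seen. The members and lists were chosen with earlier results of these data known.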

Additional observations from a re-analysis of the deposited data

Results flagged for a closer look

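Of 36 groups of 4 libraries examined for a single distant value, 4 had one whose gap to the nearest library exceeded 0.829 of the range, and chance gives about 1 in 20. Fcgr1 in Ch25h+/+ Tau+ replicate 4 was at 6.82 CPM, above the other 3 libraries of its group. Fcgr2b in Ch25h+/+ Tau+ replicate 2 was at 6.90 CPM, below the others. The log2 ratio of Fcgr1 to Fcgr2b was -1.03 in Ch25h-/- Tau+ replicate 4, below the others, and that of Fcgr3 to Fcgr2b was 0.73 in Ch25h-/- Tau- replicate 3, above the others.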

How the results depend on the processing

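No paired analysis was possible because the labels pair no samples and replicate numbers are only names. Counts of Fc receptor genes called were 2 for tau in Ch25h+/+ (1 to 2 with 1 library left out) and 3 for Ch25h loss in Tau+ (0 to 3), the latter being 0 with library class as a covariate and 1 with only the 8 libraries compared; the cause was not tested. Signs that turned were those of values that had not passed. For Ch25h loss in Tau- they were Fcer1g (-0.042 by limma-voom, -0.081 to 0.42 with 1 library left out) and Fcgr3 (0.16 with library class). For the interaction of Fcgr3 they were -0.014 with a surrogate variable, -0.17 with library class and -0.18 to 0.45 with 1 library left out. For tau in Ch25h-/- the ranges with 1 library left out were -0.37 to 0.13 for Fcer1g, -0.0060 to 0.27 for Fcgr1 and -0.21 to 0.010 for Fcgr2b. Ratios to Fcgr2b with 1 library left out spanned -0.15 to 0.076 (Fcgr1, Ch25h loss in Tau+), -0.20 to 0.024 (Fcgr1, tau in Ch25h+/+), -0.095 to 0.37 (Fcgr3, Ch25h loss in Tau+) and -0.43 to 0.18 (Fcgr3, tau in Ch25h+/+). With a pseudocount of 0.1 CPM the Fcgr4 ratio differed by 0.37 for tau in Ch25h+/+ (-0.23 with 0.5 CPM) and -0.092 for Ch25h loss in Tau+ (0.30), so both signs turned. The Fcgr4 level relative to microglia markers differed by 1.01 for tau in Ch25h+/+ (0.35 with 0.5 CPM) and 1.03 in Ch25h-/- (0.39). For Ch25h loss it differed by -0.71 in Tau+ (-0.27 with 0.5 CPM) and -0.73 in Tau- (-0.30). With Cx3cr1 and Csf1r alone as reference, chosen after seeing the data, the relative levels were -0.41 for Fcgr1, -0.33 for Fcgr2b and -0.0091 for Fcgrt (Ch25h loss in Tau+) and -0.19 for Fcgrt (tau in Ch25h+/+). Against each of the 10 markers alone, also added then, they spanned, for tau in Ch25h+/+, 0.070 to 1.25 (Fcgr1), 0.17 to 1.35 (Fcgr2b), 0.0020 to 1.18 (Fcgr3), -0.056 to 1.13 (Fcgr4), 0.30 to 1.49 (Fcer1g) and -0.42 to 0.76 (Fcgrt). For Ch25h loss in Tau+ they spanned -1.13 to -0.25, -1.05 to -0.17, -0.91 to -0.030, -0.75 to 0.13, -1.23 to -0.35 and -0.74 to 0.15 in the same order, and for Ch25h loss in Tau- -0.63 to 0.13 (Fcgr1), -0.28 to 0.48 (Fcgr2b), -0.71 to 0.044 (Fcgr4) and -0.71 to 0.051 (Fcgrt).

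With 1 library left out, calls over all genes spanned 108 (without Ch25h+/+ Tau+ replicate 4) to 1691 (without Ch25h-/- Tau+ replicate 1) for Ch25h loss in Tau+, 3 (without Ch25h+/+ Tau- replicate 1) to 1306 (without Ch25h+/+ Tau+ replicate 1) for Ch25h loss in Tau-, 160 (without Ch25h+/+ Tau+ replicate 4) to 299 for tau in Ch25h+/+, 6 to 13 (without Ch25h-/- Tau- replicate 4) for tau in Ch25h-/- and 0 (without Ch25h-/- Tau+ replicate 3 or 4) to 22 (without Ch25h+/+ Tau+ replicate 1) for the interaction. With all libraries, the calls for Ch25h loss in Tau+ were 629, against 1501 by DESeq2, 1883 by limma-voom, 192 with GC offsets, 106 with only the 8 libraries and 10 with library class. For Ch25h loss in Tau- they were 182, against 1048, 1388, 13, 1229 and 0 in the same order, 522 with no filter and 3 with a surrogate variable. For tau in Ch25h+/+ they were 277, against 424 by DESeq2 and 498 by limma-voom. For tau in Ch25h-/- they were 7, against 14 by DESeq2, 28 with no filter and 2 at a mean of at least 50 counts. For the interaction they were 6, against 55, 57 with no filter and 3 with library class.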
